A study of Mus musculus with 10 samples.

Results

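Injured retinal ganglion cells (RGCs) that carried transcripts of the red fluorescent reporter mCherry were compared with injured RGCs from the same libraries in which no mCherry transcript was found. Cells were chosen in the libraries injured 1, 2 and 3 if at least 1% of their UMIs came from ribosomal protein genes, and were then split by their mCherry UMIs (1 or more against 0). UMIs are barcodes that let each captured RNA molecule be counted separately. Of the 1138 barcodes of these libraries 1037 were kept, of which 481 were mCherry-positive and 556 mCherry-negative. The whole series holds 3292 barcodes in 10 libraries. Because mCherry itself defined the classes, its counts are given as a description and were left out of every test.

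The study profiled RGCs of wild-type 129S1/SvImJ mice of both sexes at an age of 84 days by droplet scRNA-seq, uninjured or 2 weeks after optic nerve crush (ONC). RGCs were enriched by immunopanning on the surface protein Thy1 from retinas pooled for each batch, so a library does not stand for an animal. The study used AAV2 vectors in which mCherry served as the control transgene or was expressed beside an shRNA, such as that against Klf9, and a further vector carried Atp6v0c. The sample labels name neither a vector nor an injection for any library, so which vector gave the mCherry transcripts is not known. Kept cells of injured 1, 2 and 3 held 5883366, 4691736 and 7526215 UMIs in total, with medians of 14681, 14653 and 14980.5 UMIs per cell. In the 6 uninjured libraries, which serve as a reference level, the median kept cell held 20475.5 to 34776 UMIs.

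AAV2 enters cells through heparan sulfate proteoglycans and a dedicated membrane receptor, and after injection into the vitreous it transduces RGCs more readily than most other retinal neurons. A cell whose vector genome is transcribed makes the reporter mRNA, which droplet sequencing can count beside the cell's own transcripts. Cells that sense viral nucleic acid or receive type I interferon switch on interferon-stimulated genes, a set of antiviral effectors and antigen presentation genes that neurons normally express at low levels.

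The libraries were not alike, and injured 3 stood apart. Injured 3 shared 421 barcodes with injured 4 (79.9% of injured 3 and 89.4% of injured 4), which is why injured 4 entered no comparison, and the only other shared barcode was 1 between uninjured 2 and 4. Nearly every kept cell of injured 3 was mCherry-positive, so this library gave only 14 negative cells. Its cells were also male by their transcripts, since 387 of 414 positive and 14 of 14 negative cells carried Y-linked UMIs without Xist and no cell carried Xist alone. In addition, 99 of its barcodes lay below the ribosomal limit, against 1 each in injured 1 and 2. In injured 1, Xist without Y-linked UMIs was found in 17 of 27 positive and 179 of 310 negative cells, and in injured 2 in 27 of 40 positive and 141 of 232 negative cells. Both classes of these mixed libraries thus held female and male cells.

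Cells of both classes had the transcripts that define RGCs. Rbpms, Slc17a6, Sncg and Tubb3 each had a UMI in 100% of the positive and 100% of the negative cells of all 3 libraries. Some transcripts of other retinal cells were found as well, and Glul of Muller glia had a UMI in 28.6 to 59.3% and Slc6a9 of amacrine cells in 14.8 to 29.0% of cells over the classes and libraries. Of the microglial genes, Cx3cr1 had a UMI in up to 7.10% and Csf1r in up to 1.45% of the cells of a class and library, and C1qa in 0 of the 1037 kept cells. At least 2 markers with 2 UMIs each were found for amacrine cells in 0 of 27, 3 of 40 and 2 of 414 positive cells and in 10 of 310, 4 of 232 and 0 of 14 negative cells of injured 1, 2 and 3. The authors had selected these barcodes as RGCs, so the presence of RGC markers is no test of the label.

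mCherry transcripts were found in a minority of cells in injured 1 and 2 and in almost all cells of injured 3. The share of positive cells was 8.01% in injured 1 (27 of 337, exact Clopper-Pearson 95% interval 5.35 to 11.4%), 14.7% in injured 2 (40 of 272, 10.7 to 19.5%) and 96.7% in injured 3 (414 of 428, 94.6 to 98.2%). No mCherry UMI was present in any of the 1683 uninjured barcodes, and 0 of the 1549 kept uninjured cells allows a share of cells with a detected UMI of up to 0.194%. All intervals and limits of this kind cover counting error only. The median positive cell held 9 mCherry UMIs in injured 1, 10.5 in injured 2 and 16 in injured 3, and the highest held 79, 681 and 712. Relative to depth, the medians were 4.98, 7.40 and 9.05 mCherry UMIs per 10000 other UMIs, so the level in a positive cell differed far less among libraries than the share of positive cells. A few cells dominated the smaller sets, as the 5 highest cells held 60.4% of all mCherry UMIs in injured 1 and 69.5% in injured 2, against 15.7% in injured 3.

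**Figure D1:**
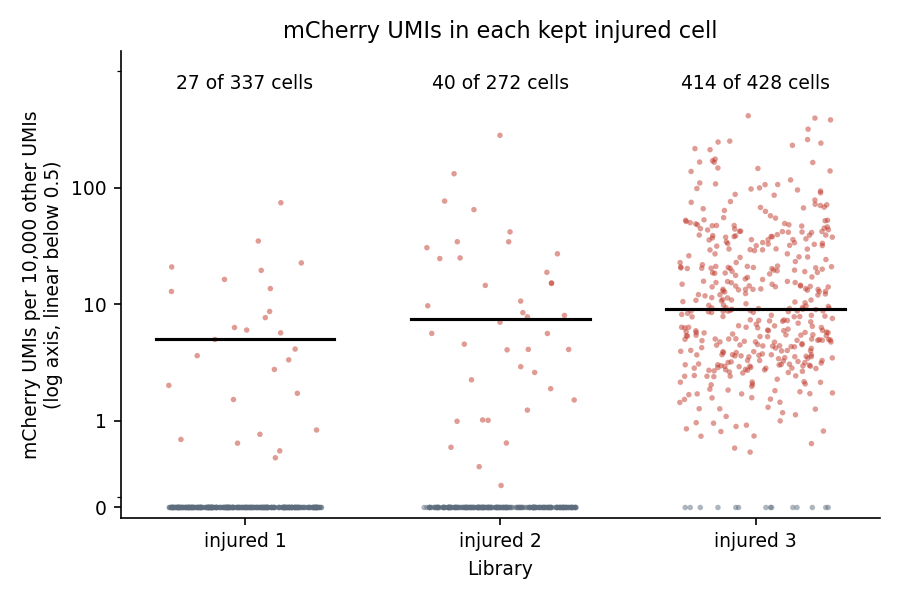
Each point is a kept cell of injured 1, 2 or 3, with its mCherry UMIs per 10000 other UMIs on a log axis that is linear below 0.5; positive cells are red, cells at 0 are grey and the bar marks the median of positive cells (4.98, 7.40 and 9.05). Positive cells span a wide range in each library, while the share of cells at 0 is small only in injured 3.

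At the threshold, 4, 5 and 15 cells of injured 1, 2 and 3 held exactly 1 mCherry UMI, with median depths of 16887.5, 16927 and 11219 UMIs. Cells with 0 had median depths of 14464.5, 14584.5 and 11292.5 UMIs. If positive cells had been defined by 2 or more UMIs, the shares would have been 6.82%, 12.9% and 93.2%. With cells of at least 8169 UMIs (302 of 337, 245 of 272 and 386 of 428) thinned to that number, the shares were 7.43%, 11.8% and 94.3%, so the gap between libraries was about as wide at equal depth. From the shallowest to the deepest quartile of cells, detection went from 4.71% to 13.1% in injured 1 and from 93.5% to 98.1% in injured 3. In injured 2 the quartiles, in the same order, were at 17.6%, 8.82%, 14.7% and 17.6%.

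**Figure D2:**
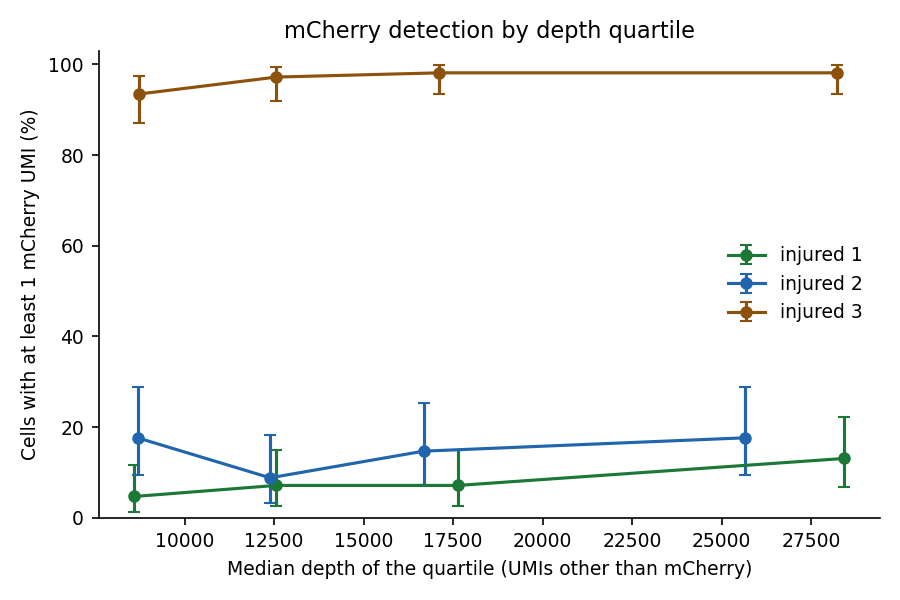
The share of kept cells with at least 1 mCherry UMI is plotted for each depth quartile of injured 1, 2 and 3 against the quartile's median UMIs, with exact 95% binomial intervals as bars. Quartiles of injured 3 lie between 93.5% and 98.1%, and those of injured 1 and 2 between 4.71% and 17.6%.

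Free mCherry RNA in the cell suspension could place UMIs in cells that do not express the reporter. Of the 99 droplets of injured 3 below the ribosomal limit, 39 (39.4%, interval 29.7 to 49.7%) carried mCherry. The median over all 99 was 11838 total UMIs. Pooled, the 99 held 2.57 mCherry UMIs per 10000, against 25.0 in kept cells, and the highest single droplet held 201 mCherry UMIs. Whether these droplets hold damaged transduced cells or free RNA cannot be told apart here. Barcodes shared by injured 3 and 4 may come from 1 capture, which the labels do not state. Of 364 cells kept in both, 343 were positive in both, 8 were negative in both, 9 were positive only in injured 3 and 4 only in injured 4. Positive calls thus mostly recurred, but with nearly all cells positive this says little of the negative call. Of the 14 negative cells of injured 3, 12 were found in injured 4, where 8 were negative and 4 positive. Negative cells of injured 1 and 2 could not be checked in this way.

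Positive cells were somewhat deeper than negative cells before matching. Their median depth was higher by 3867.5, 2223.5 and 3770.5 UMIs in injured 1, 2 and 3 (mean 3287 ± 922, SD, n = 3, exact two-sided permutation p = 0.25, the smallest p that 3 libraries allow). Each cell of the smaller class was therefore paired with a cell of the other class of the same library whose depth lay within 0.1 on the log2 scale, which gave 27, 40 and 14 pairs. Matched medians were 18332 and 18328 UMIs in injured 1, 16808 and 16710 in injured 2, and 11279 and 11292.5 in injured 3 for positive and negative cells. After matching, the classes still differed in ribosomal share of UMIs, which was 5.88% and 5.05% in injured 1, 6.19% and 5.89% in injured 2, and 5.98% and 4.17% in injured 3. Positive cells were higher in 3 of 3 libraries, by 0.985 ± 0.768 percentage points (SD, n = 3, exact permutation p = 0.25). The mitochondrial share was lower in positive cells of injured 2 (3.03% and 3.69%) and 3 (1.43% and 1.71%) and nearly equal in injured 1 (3.03% and 2.97%). Values with cells matched for ribosomal share as well are given with the gene results, and the part of the other quality measures was not tested.

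The main comparison asked which transcripts other than the reporter differed between mCherry-positive and mCherry-negative RGCs of equal depth. Ifit1 and Ifit2 of the list of interferon and antiviral genes were lower in positive cells. So were Psmb8 of the antigen presentation list, Ifi202b of neither list, the mechanosensitive channel gene Piezo2 and 10 other genes. The opioid precursor gene Penk was higher. UMIs were summed over the matched cells of each class and library, and levels of a gene are given as CPM, its UMIs per 1000000 UMIs of the sum. After this step 7798 of 34254 genes passed the filter on low counts. Of these 16 (0.205%) passed an adjusted p of 0.05 in edgeR's quasi-likelihood test with library as a block and Benjamini-Hochberg adjustment, 15 (0.192%) lower and 1 (0.0128%) higher in positive cells. At an unadjusted p below 0.05 there were 377 genes, 268 of them lower, and the median log2 fold change of all genes tested was -0.01. DESeq2 called 1 of these genes, Ifi202b, and limma-voom called 21 genes. With the cell with the most UMIs taken out of each sum, gene by gene, the count was 0 (254 at an unadjusted p below 0.05, edgeR alone). There 7 of the 16 passed the filter, and all 7 kept their direction at an unadjusted p below 0.05. With pairs within 0.02 on the log2 scale the count was 0 (221 at an unadjusted p below 0.05, edgeR alone). There 13 of the 16 were tested, and all 13 kept their direction at an unadjusted p below 0.05. The 16 were picked in largely the same cells, so their direction in these 2 settings is no separate support. The count was 74 without injured 2, 61 without injured 3 and 14 without injured 1, 5 of these 14 being among the 16. With no library block it was 1 (Piezo2), and with all kept cells unmatched it was 5. In female cells of injured 1 and 2 only, 32 genes passed, 21 of them higher in positive cells, so the excess of falls depended on the cells included.

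**Figure D3:**
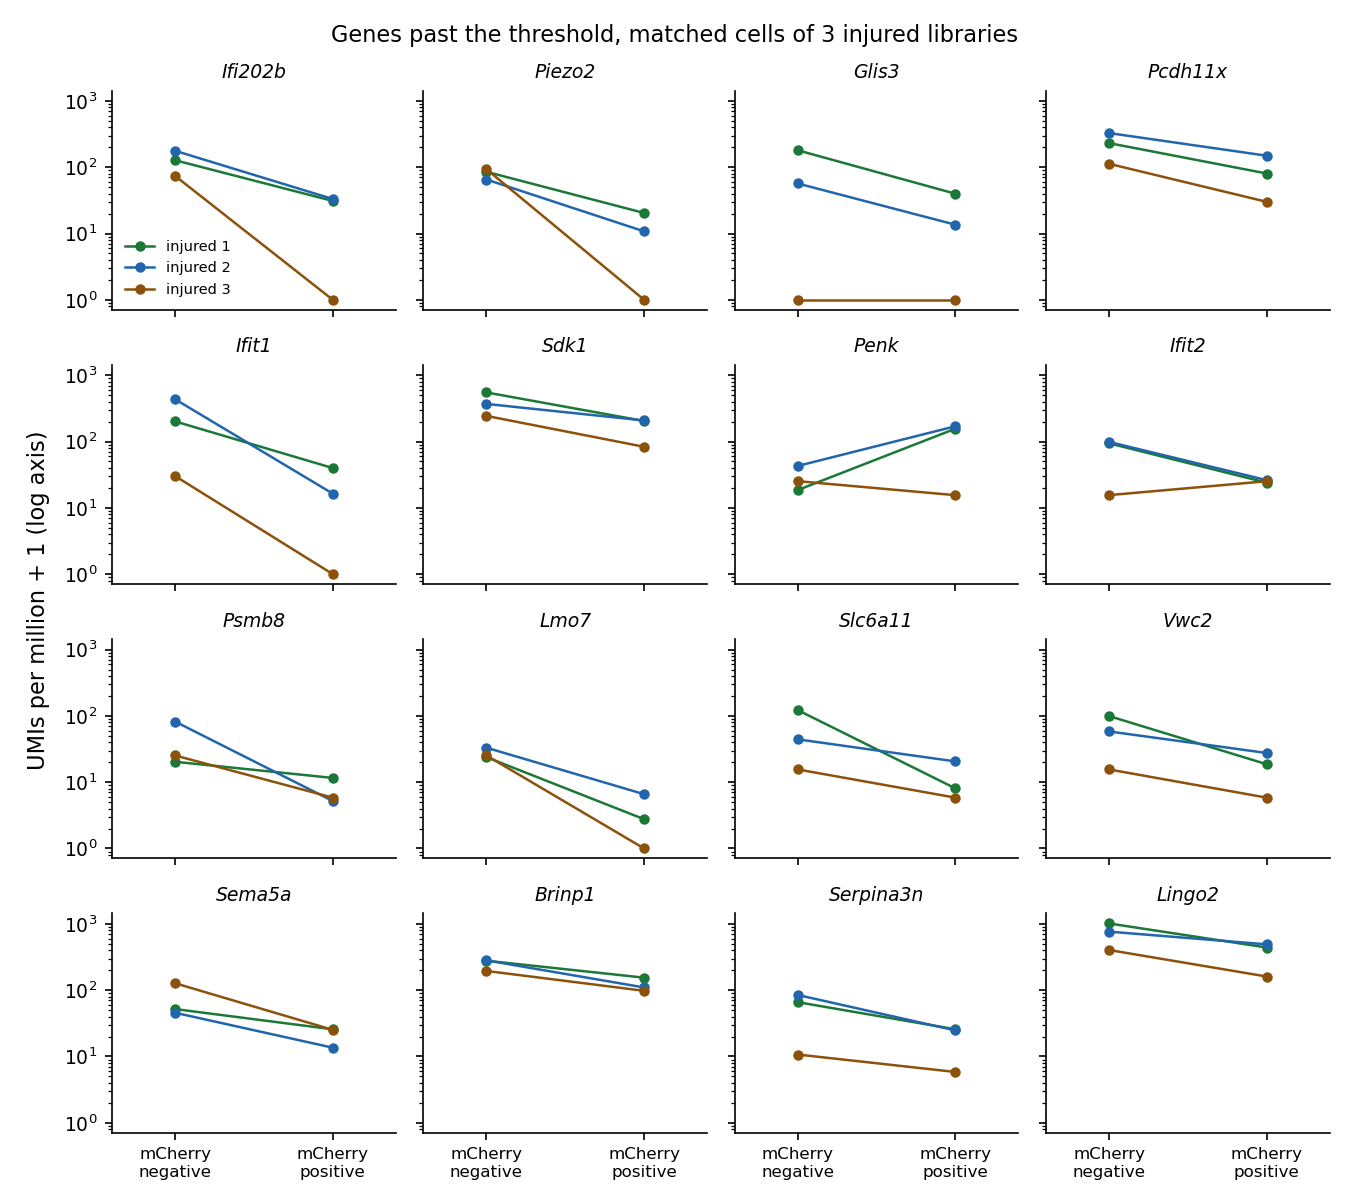
Levels of the 16 genes past the threshold are plotted as CPM plus 1 on a log axis, for summed matched mCherry-negative and mCherry-positive cells, with a line for each of injured 1, 2 and 3. Lines fall from left to right in every library for most genes, Penk rises in injured 1 and 2 alone, and Ifit2 falls in injured 1 and 2 alone.

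Ifit1 encodes an interferon-induced protein that binds viral RNA, and it showed the largest fall among the genes called. Matched positive and negative cells held 22 and 114 Ifit1 UMIs in injured 1 (38.8 and 200 CPM), 11 and 310 in injured 2 (15.4 and 432 CPM), and 0 and 6 in injured 3. Negative cells were thus higher in 3 of 3 libraries, at a log2 fold change of -3.56 (SE 0.45, adjusted p = 0.00464, edgeR). The UMIs sat in few cells, as 9 of 40 negative cells of injured 2 carried Ifit1 and 1 of them held 151 of the 310. In injured 1 it was found in 5 positive and 4 negative cells, and all 6 UMIs of injured 3 came from 1 cell. Over all kept cells of injured 3, unmatched, Ifit1 was at 24.8 and 29.1 CPM in positive and negative cells. In uninjured libraries Ifit1 reached at most 1.25 CPM. Ifit1 lies on chromosome 19 from 34618271 to 34632174 on the forward strand (GRCm39), beside its relatives Ifit2 and Ifit3. Across 19 alternative settings that tested it, Ifit1 was lower in positive cells in all and called in 12, with adjusted p from 1.22e-22 to 1.00. The call was lost among others with all kept cells unmatched, where the log2 fold change was -2.09.

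Ifi202b, which encodes an interferon-inducible DNA-binding protein of the HIN family, gave the smallest p. Its counts in positive and negative cells were 17 and 72 in injured 1 (30.0 and 126 CPM), 23 and 126 in injured 2 (32.1 and 176 CPM), and 0 and 15 in injured 3. In CPM every positive sum lay under every negative sum (72.8 CPM for negative cells of injured 3). The log2 fold change was -2.45 (SE 0.31, adjusted p = 4.29e-05, edgeR), and it was called in 17 of 19 alternatives. No Ifi202b UMI was found in the 1549 kept uninjured cells, which does not bound expression below detection. All 15 UMIs of injured 3 came from 1 negative cell.

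Ifit2 of the interferon list and Psmb8 of the antigen presentation list were also called lower in positive cells. Ifit2, a relative of Ifit1, had 13 and 53 UMIs in injured 1, 18 and 70 in injured 2, and 5 and 3 in injured 3 for positive and negative cells, so injured 3 went the other way. Its log2 fold change was -1.69 (SE 0.35, adjusted p = 0.0288), and it was called in 7 of 18 alternatives. Psmb8 encodes a catalytic subunit of the immunoproteasome, the form of the proteasome that interferon induces and that makes peptides for antigen presentation. It had 6 and 11 UMIs in injured 1, 3 and 58 in injured 2, and 1 and 5 in injured 3, with a log2 fold change of -2.66 (SE 0.55, adjusted p = 0.0288). A single negative cell of injured 2 held 46 of the 58. Psmb8 was called in 6 of 12 alternatives.

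Promoter sequences are shown because Ifit1 and Ifi202b were lower in positive cells of 3 of 3 libraries. The letters GAAANNGAAA, or TTTCNNTTTC on the other strand, form the core of the element that interferon-activated transcription factors bind. They were searched on both strands, with overlapping matches counted, in windows from 250 bases before to 50 bases after the first-listed start of each gene (RefSeq, GRCm38.p6). The motif was present in 943 of 27025 promoters in the table (3.49%), in 152 of 6209 promoters of tested genes (2.45%), in 15 of 30 promoters of the interferon list and in 1 of the 13 called genes found in the table. The called genes Pcdh11x, Penk and Piezo2 had no entry. The sequences printed are those of Ifit1 (chr19:34640639-34640938, forward strand), Isg15 (chr4:156200769-156201068, reverse strand), which encodes a ubiquitin-like antiviral modifier and was picked after its values were seen, and Ifi202b (chr1:173982795-173983094, reverse strand). Each is written along its gene's strand, with matches in capitals.
Ifit1: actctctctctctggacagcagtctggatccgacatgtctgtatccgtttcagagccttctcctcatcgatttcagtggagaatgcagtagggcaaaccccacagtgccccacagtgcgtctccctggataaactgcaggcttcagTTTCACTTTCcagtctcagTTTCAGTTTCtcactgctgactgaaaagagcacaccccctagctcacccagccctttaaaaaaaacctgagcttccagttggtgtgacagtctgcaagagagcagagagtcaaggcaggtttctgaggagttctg
Isg15: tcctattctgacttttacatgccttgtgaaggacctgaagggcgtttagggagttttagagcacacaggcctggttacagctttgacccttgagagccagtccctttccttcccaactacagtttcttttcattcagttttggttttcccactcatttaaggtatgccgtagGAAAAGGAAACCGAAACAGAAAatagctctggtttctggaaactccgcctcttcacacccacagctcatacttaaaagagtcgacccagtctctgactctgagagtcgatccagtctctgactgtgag
Ifi202b: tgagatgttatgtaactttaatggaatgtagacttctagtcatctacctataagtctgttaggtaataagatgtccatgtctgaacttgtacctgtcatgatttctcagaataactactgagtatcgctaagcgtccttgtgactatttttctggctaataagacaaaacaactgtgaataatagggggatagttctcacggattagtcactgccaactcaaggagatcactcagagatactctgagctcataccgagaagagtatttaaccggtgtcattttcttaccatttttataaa
Ifit1 holds 2 matches, which begin 104 and 85 bases before the start, and Isg15 holds 3 overlapping matches, which begin 78, 72 and 66 bases before it. Ifi202b, Ifit2 and Psmb8 hold none in this window. A match describes the letters and shows neither binding nor regulation.

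In the list of interferon and antiviral genes, 41 were in the files and 7 passed the filter on low counts, of which 2 fell (Ifit1 and Ifit2) and none rose, against 15 lower (0.192%) and 1 higher among all 7798 genes tested. The median log2 fold change of these 7 was -1.07, but genes high in negative cells alone could pass the filter, so this median describes the 7 only. The list's summed level was 326 and 899 CPM in positive and negative cells of injured 1, 274 and 1330 in injured 2, and 247 and 364 in injured 3. Ifit1 was its most abundant gene in negative cells of injured 1 and 2, whereas Adar, an RNA editing enzyme that many cells express without interferon, was its most abundant gene in positive cells of all 3 libraries. Some members too low to be tested also had more UMIs in negative cells of injured 1 and 2, and were picked after their values were seen. Isg15 had 0 and 27 UMIs in positive and negative cells of injured 1, 4 and 67 in injured 2, and none in either class of injured 3. Bst2, which tethers budding virus to the cell surface, had 5 and 22 in injured 1, 4 and 60 in injured 2, and 1 and 1 in injured 3. The highest negative cell of injured 2 held 49 of the 67 UMIs for Isg15 and 39 of the 60 for Bst2. Oasl2, chosen in the same way, missed the threshold (log2 fold change -1.92, adjusted p = 0.0657).

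Of 17 listed antigen presentation genes 8 were tested, 1 fell (Psmb8) and none rose, against 0.192% lower among all 7798 genes tested. The median of the 8 was -1.02, and it too describes only the genes that passed the filter, which genes high in negative cells alone could do. B2m, the light chain of class I molecules, had 141 and 112 UMIs in positive and negative cells of injured 1, 84 and 225 in injured 2, and 28 and 90 in injured 3, and did not pass (log2 fold change -0.85, adjusted p = 0.925). More positive than negative cells carried B2m in each library, at 15 and 6 of 27, 17 and 15 of 40, and 7 and 5 of 14. In injured 3, 1 negative cell held 72 of the 90 UMIs. The heavy chain gene H2-K1 had 136 and 134, 95 and 251, and 47 and 82 UMIs in the same order, with an adjusted p of 0.696. Injured 1 thus showed no lower level for either gene. Both were chosen after their values were seen.

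**Figure D4:**
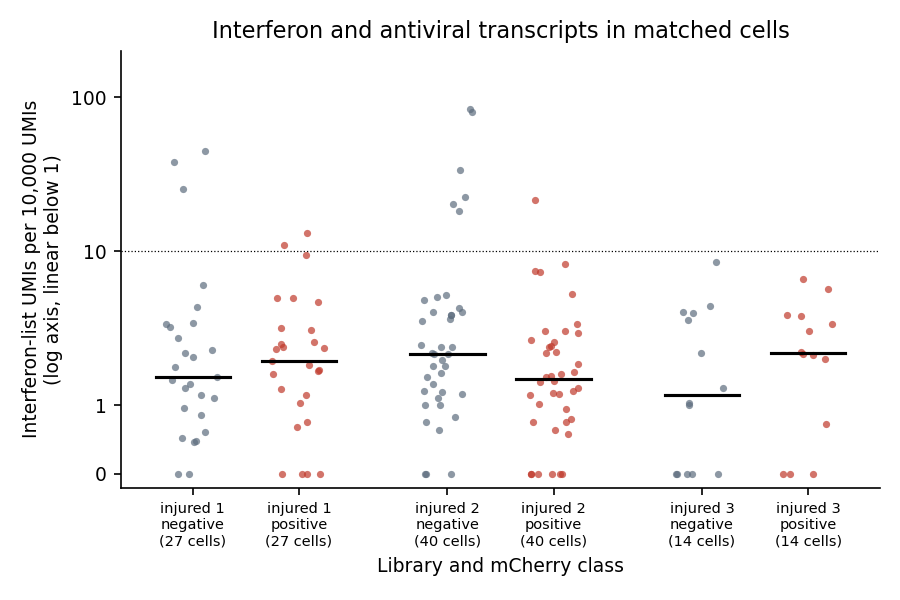
Each point is a matched cell of injured 1, 2 or 3, with the summed UMIs of the interferon and antiviral list per 10000 UMIs on a log axis that is linear below 1; bars mark medians and the dotted line marks 10 per 10000. Above the line are 3 and 6 negative cells and 2 and 1 positive cells of injured 1 and 2, and no cell of injured 3, and the median is higher in positive cells of injured 1 and 3 and in negative cells of injured 2.

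The interferon difference lay largely in a small number of cells with many UMIs of these genes, and the medians of the classes did not differ in 1 direction. In matched cells the median interferon level per 10000 UMIs was 1.93 in positive and 1.52 in negative cells of injured 1, 1.48 and 2.17 in injured 2, and 2.18 and 1.16 in injured 3. At a level of 10 per 10000, chosen after the values were seen, 67 of the 1037 kept injured cells (6.46%) were interferon-rich, against 1 of 1549 uninjured cells. These cells held 79.8% of all UMIs of Ifi202b, which is not on the list, in kept injured cells. B2m was broader, with 49.8% of its UMIs in these cells and a UMI in 37.7% of the others.

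Interferon-rich cells were found in both mCherry classes. Among all kept cells they made up 2 of 27 positive (7.41%, exact interval 0.910 to 24.3%) and 26 of 310 negative cells (8.39%, 5.55 to 12.0%) in injured 1. In injured 2 they made up 1 of 40 positive (2.50%, 0.0633 to 13.2%) and 26 of 232 negative cells (11.2%, 7.45 to 16.0%). Injured 3 had 12 of 414 positive cells (2.90%, 1.51 to 5.01%) and 0 of 14 negative cells, which allows up to 21.4%. In matched cells the counts were 2 of 27 and 3 of 27, 1 of 40 and 6 of 40, and 0 of 14 and 0 of 14 for positive and negative cells of injured 1, 2 and 3. No test of these shares was run. Over all kept cells they did not differ in 1 direction over the libraries. In matched cells negative cells had more in injured 1 and 2, and injured 3 had none in either class. Ifi202b was found in 4 of 4, 9 of 9 and 1 of 1 matched negative cells that carried Ifit1 in injured 1, 2 and 3, and in 3 of 5 and 2 of 3 such positive cells of injured 1 and 2, while injured 3 had none.

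Penk, the precursor of the enkephalin opioid peptides and a transcript of some RGC subtypes, was the gene called higher in positive cells. It had 88 and 10 UMIs in positive and negative cells of injured 1 (155 and 17.6 CPM), 121 and 30 in injured 2 (169 and 41.9 CPM), and 3 and 5 in injured 3. Positive cells were higher in 2 of 3 libraries, and injured 3 went the other way (14.5 and 24.3 CPM). In all kept cells of injured 3, unmatched, Penk was higher in positive cells (76.6 and 24.3 CPM). The log2 fold change was 2.17 (SE 0.38, adjusted p = 0.0288, edgeR), and uninjured libraries ranged from 33.1 to 125 CPM. Penk was called in 9 of 17 alternatives, with log2 fold changes from 1.21 to 2.45. It missed the threshold with a second set of matched cells (1.21, adjusted p = 0.327) and without injured 1 (1.60, adjusted p = 0.0680). Cells with at least 2 Penk UMIs numbered 5 of 27 positive and 2 of 27 negative in injured 1, 11 of 40 and 4 of 40 in injured 2, and 0 of 14 and 1 of 14 in injured 3.

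Penk was 1 of 27 listed RGC subtype transcripts. Of these 13 were tested, 1 rose and none fell, against 0.0128% higher and 0.192% lower among all genes tested, and log2 fold changes ranged from -1.63 (Cartpt) to 2.66 (Spp1) with a median of -0.23. Over the 81 matched pairs, at least 2 UMIs were found in 61 positive and 53 negative cells for Tac1 (the substance P precursor), in 65 and 61 for Calb2 (calretinin), and in 6 and 8 for Foxp2. The melanopsin gene Opn4 was found in 1 positive and 5 negative cells, and the alpha RGC transcript Spp1 in 6 and 3. For Tac1 this was 26 and 18 of 27 in injured 1, 26 and 26 of 40 in injured 2, and 9 and 9 of 14 in injured 3. The log2 fold change of Tac1 in summed UMIs went the other way (-0.39) and did not pass. No test was run on these shares.

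Piezo2 encodes a mechanically gated cation channel and was among the calls that depended least on the settings. It had 11 and 48 UMIs in positive and negative cells of injured 1 (19.4 and 84.3 CPM), 7 and 46 in injured 2 (9.78 and 64.2 CPM), and 0 and 19 in injured 3. All negative sums exceeded all positive sums. The log2 fold change was -2.68 (SE 0.40, adjusted p = 0.000487, edgeR), and Piezo2 was called in 15 of 18 alternatives, with adjusted p of at most 0.0854. Its UMIs were also concentrated, since 1 negative cell held 26 of the 48 in injured 1 and another 16 of the 19 in injured 3. Ifi202b was carried by 2 of 3 Piezo2-bearing negative cells of injured 1, 6 of 7 of injured 2 and 0 of 3 of injured 3. Among Piezo2-bearing positive cells it was carried by 2 of 4 in injured 1 and 0 of 3 in injured 2. Uninjured libraries had at most 2.12 Piezo2 CPM.

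Pcdh11x, Sdk1, Sema5a and Lingo2 were also lower in positive cells. Pcdh11x, an X-linked protocadherin gene, had 45 and 131 UMIs in positive and negative cells of injured 1, 106 and 234 in injured 2, and 6 and 23 in injured 3 (log2 fold change -1.40, adjusted p = 0.00441). Sdk1, whose product guides synaptic layering in the retina, had 115 and 313, 148 and 264, and 17 and 50 UMIs in the same order (-1.22, adjusted p = 0.0144). Both were lower in positive cells of every library, and both stayed lower in every alternative that tested them (called in 7 of 20 for Pcdh11x and 9 of 21 for Sdk1). Their log2 fold changes ranged from -1.62 to -0.24 and from -1.57 to -0.22, with adjusted p up to 1.00. In all kept cells of injured 3, unmatched, Pcdh11x was higher in positive cells (163 and 112 CPM). The axon guidance gene Sema5a was lower in 3 of 3 libraries (-1.63, adjusted p = 0.0288), with 5 and 26 UMIs in injured 3, and was called in 9 of 20 alternatives, with a value as small as -0.23. Lingo2, a leucine-rich repeat membrane protein gene, was the most abundant of the 16, at 439 and 1015 CPM in positive and negative cells of injured 1. Its log2 fold change of -1.02 (adjusted p = 0.0408) became 0.038 with a second set of matched cells, so its direction depended on which cells were matched.

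The other falls came from genes of varied function. Glis3, a zinc finger transcription factor gene, had 22 and 102 UMIs in injured 1 and 9 and 40 in injured 2, but no UMI in either class of injured 3 (-2.17, adjusted p = 0.000654), so its call rests on injured 1 and 2. Slc6a11, a GABA transporter gene, had 4 and 69 UMIs in injured 1, 14 and 31 in injured 2, with 29 of the 31 in 1 cell, and 1 and 3 in injured 3. Vwc2, which encodes a secreted inhibitor of bone morphogenetic proteins, had 10 and 56, 19 and 41, and 1 and 3. Their log2 fold changes were -2.34 and -1.72, and they were called in 4 of 12 and 5 of 18 alternatives, with values from -2.39 to -0.57 and from -2.64 to -0.13. In all kept cells of injured 2, unmatched, both were higher in positive cells (19.6 and 16.1 CPM for Slc6a11, 26.5 and 23.1 CPM for Vwc2). Lmo7, an adaptor protein gene, had the fewest UMIs of the set, with 1 and 13, 4 and 23, and 0 and 5 in injured 1, 2 and 3 (-2.98, adjusted p = 0.0288). Serpina3n, a secreted protease inhibitor gene induced in inflammation, and Brinp1, a gene of the nervous system, fell with log2 fold changes of -1.59 and -1.08 and were called in 5 of 18 and 6 of 21 alternatives, with values from -1.91 to -0.60 and from -1.24 to -0.49. Lmo7 was called in 5 of 11 and Glis3 in 10 of 15. In all kept cells of injured 3, Serpina3n and Glis3 were higher in positive cells (21.0 and 9.70 CPM, 8.22 and 0 CPM). In matched cells each of these genes was lower in positive cells in 3 of 3 libraries except Glis3, which was lower in 2. Lingo2, Brinp1, Sdk1 and Glis3 lay outside the rule for named genes and were named after their values were seen.

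The called genes tended to be long. By the GENCODE annotation, 10 of the 16 (62.5%) span at least 100 kb, against 22.4% of the tested genes with a position, and all 10 were lower in positive cells. The median log2 fold change was -0.15 over the 1724 tested genes of at least 100 kb and 0.02 over the 5975 shorter ones. Long genes made up 273232 and 315876 CPM in positive and negative cells of injured 1, 263067 and 241224 in injured 2, and 194939 and 274000 in injured 3. The share of long genes thus moved one way in injured 1 and 3 and the other way in injured 2. Ribosomal share was higher in positive cells of 3 of 3 libraries. With cells matched for it as well 11 genes passed, 5 higher and 6 lower in positive cells. Among the 16 were 5 of these 11 (Glis3, Ifi202b, Ifit1, Penk and Piezo2).

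No general RGC marker passed the test. Of 15 such markers 14 were tested, against 0.205% called among all genes tested, with a median log2 fold change of -0.08. Gap43, a growth cone protein gene, had 1811 and 1205 UMIs in positive and negative cells of injured 1, 1990 and 1920 in injured 2, and 506 and 384 in injured 3 (0.36, 95% interval -0.08 to 0.80). Rbpms (-0.02), Slc17a6 (-0.23), Sncg (-0.31) and Tubb3 (-0.15) were the markers that the study used, and none of them passed.

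Transcripts that the study's vectors target or carry were measured because positive cells could carry such a vector. Klf9, a transcription factor gene, had 125 and 107 UMIs in positive and negative cells of injured 1, 149 and 122 in injured 2, and 42 and 33 in injured 3 (log2 fold change 0.29, 95% interval -0.18 to 0.76). Atp6v0c, the subunit that forms the proton-conducting ring of the vacuolar ATPase, had 720 and 664, 1039 and 1183, and 293 and 286 UMIs in the same order (-0.00, -0.44 to 0.44). Neither passed the test, and the intervals leave room for moderate changes in either direction. Among all 24 tested genes of the list of targets and PI3K-mTOR signaling none passed, nor did any of 10 tested V-ATPase Vo genes, against 0.205% of all genes tested. The kinase gene Gsk3b had a log2 fold change of 0.21 and the Vo subunit gene Atp6v0b 0.20.

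Genes that AAV2 needs for attachment and entry gave no call. Of 47 genes of this list in the files 29 were tested and none passed, against 0.205% of all genes tested, and the median log2 fold change was -0.03. Hs6st3, which adds sulfate to heparan sulfate chains, had 372 and 372 UMIs in positive and negative cells of injured 1, 460 and 356 in injured 2, and 93 and 71 in injured 3. Its log2 fold change of 0.26 became 0.98 (adjusted p = 0.0106, edgeR) when cells were matched for ribosomal share as well, and -0.04 with a second set of matched cells. Rpsa, which encodes a laminin-binding ribosomal protein, had a log2 fold change of 0.04.

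No gene of the injury and stress lists passed the test, where 0.205% of all genes tested did, so 0 calls in lists of this size describes these genes only. The 24 tested axon injury response genes had a median log2 fold change of 0.14. Sox11, a transcription factor gene switched on in injured RGCs, had 817 and 570 UMIs in positive and negative cells of injured 1, 845 and 708 in injured 2, and 189 and 190 in injured 3 (0.28), and Ecel1, an endopeptidase gene of injured neurons, had a log2 fold change of 0.18. None of 30 tested genes of ER stress and the integrated stress response passed. Of these 25 lay above 0, with a median of 0.20 against -0.01 for all genes tested. Above 0 were also 15 of the 24 axon injury response genes and 16 of 22 DNA damage and p53 targets. Among chaperone and proteasome genes 26 of 39 lay above 0, and among immediate early genes 5 of 10. Hspa5, the ER chaperone gene, had 281 and 212, 264 and 247, and 160 and 102 UMIs (0.39, adjusted p = 1.00), and the transcription factor gene Ddit3 had a log2 fold change of 0.37. No gene passed among 22 tested DNA damage and p53 targets (median 0.13), 39 chaperone and proteasome genes (0.04) and 10 immediate early genes (-0.01). Examples are Gadd45a (0.09) and Gadd45g (0.03; -1.01 in female cells only, adjusted p = 0.0154), which arrest growth after DNA damage, the chaperone gene Hsp90aa1 (0.21), the ubiquitin gene Ubb (0.20), and the AP-1 family genes Atf3 (0.15) and Jund (0.14).

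Transcripts that report on RNA quality and sex gave no call, against 0.205% of all genes tested. None of 13 mitochondrially encoded genes passed (median 0.01), with mt-Co3 at 0.11 and mt-Atp6 at 0.03. None of 10 nuclear long noncoding RNAs passed (median -0.05), with Malat1 at 0.29 and Meg3 at 0.04. Among the sex-linked genes 3 of 6 were tested and none passed. Xist, the X-inactivation RNA, had 340 and 388 UMIs in positive and negative cells of injured 1, 584 and 562 in injured 2, and none in injured 3. The Y-linked genes Uty and Eif2s3y had log2 fold changes of -0.82 (adjusted p = 0.973) and 0.11.

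**Figure D5:**
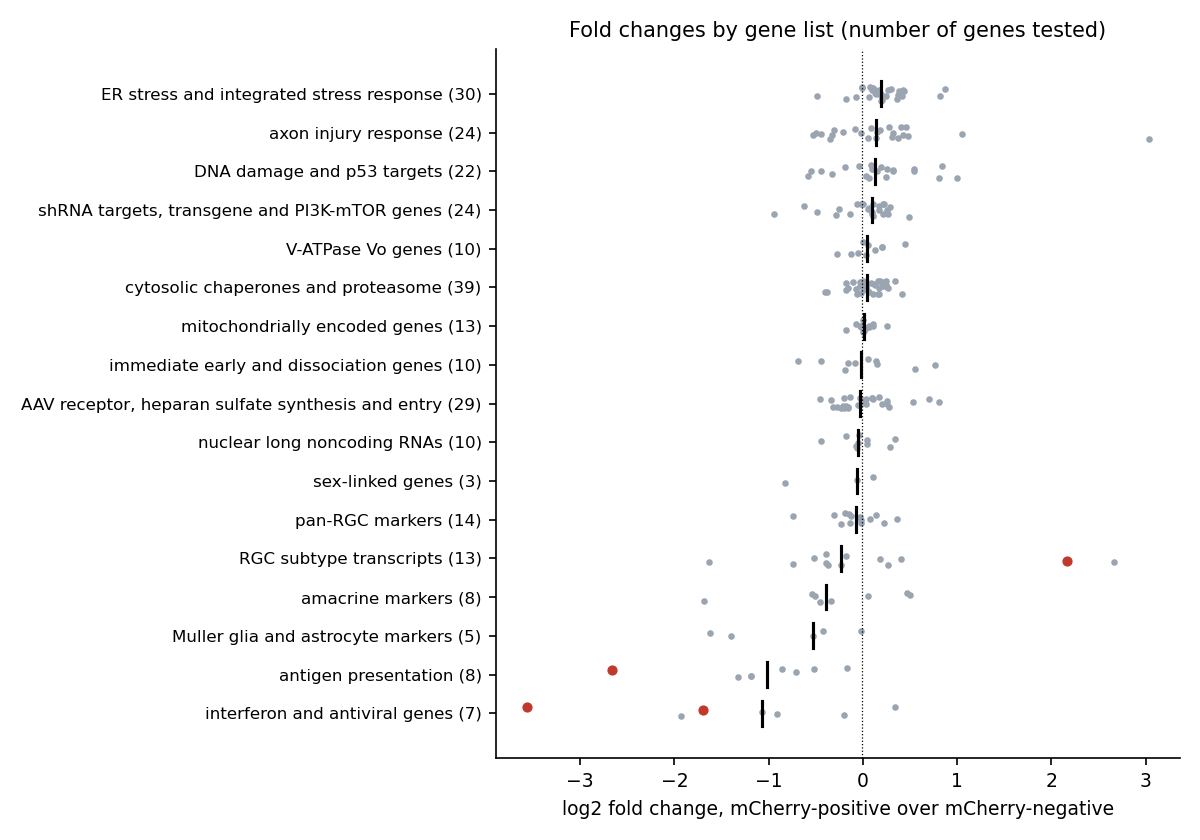
Each point is the log2 fold change (mCherry-positive over mCherry-negative matched cells) of a tested gene, by gene list, for lists with 3 or more tested genes; red points passed the test and bars mark list medians. Most medians lie near 0, and those of interferon and antigen presentation genes are -1.07 and -1.02, over only 7 of 41 and 8 of 17 genes, which could pass the filter through negative cells alone.

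None of the tested markers of other retinal cells passed, against 0.205% of all genes tested. Muller glia and astrocyte markers, 16 in all and 5 tested, had a median log2 fold change of -0.52, and their summed level was 388 and 412 CPM in positive and negative cells of injured 1, 430 and 798 in injured 2, and 291 and 660 in injured 3. Clu, their most abundant gene and one that neurons also express, had 112 and 93, 178 and 350, and 37 and 69 UMIs (-0.52), and it was called in female cells only (-0.95, adjusted p = 0.00497, edgeR). Slc1a3, a defining glial transporter gene, had a UMI in at most 2.59% of the kept cells of any class and library. In matched cells Glul was at 84.7 and 94.8 CPM in positive and negative cells of injured 1, 88.0 and 119 in injured 2, and 43.6 and 87.3 in injured 3 (-0.42). All 5 tested glial genes had log2 fold changes below 0, from -1.62 (Car2) and -1.40 (Dkk3) to -0.02 (Vim). Of these genes 3 had an unadjusted p below 0.05 (edgeR), as had 377 of all 7798 genes tested, 268 of the 377 being lower. Genes high in negative cells alone could pass the filter, so these values describe the 5 only. The summed list lay lower in positive cells of 3 of 3 libraries, and the part of glial transcripts in the interferon result was not tested. Amacrine markers, 16 in all and 8 tested, had a median of -0.40 and summed to 568 and 1215 CPM in injured 1, 766 and 569 in injured 2, and 731 and 393 in injured 3. C1ql2 was the most abundant amacrine marker in all sums but the negative cells of injured 1, where Tfap2b was, and Pax6 had a log2 fold change of 0.05.

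Bipolar markers, 2 of 12 tested, summed to 155 and 374, 228 and 261, and 184 and 204 CPM in positive and negative cells of injured 1, 2 and 3. Nearly all of this came from Prkca (-0.51), which RGCs also express, and Isl1 (-0.74, adjusted p = 0.733), which is a marker of RGCs as well. Microglia and macrophage markers, 1 of 16 tested, summed to 31.8 and 82.5, 37.7 and 47.4, and 92.0 and 87.3 CPM. Cx3cr1, a microglial receptor gene, had 29 UMIs in the negative cells of injured 1, 18 of them in 1 cell. None of the 20 photoreceptor markers and 16 vascular, oligodendrocyte and blood markers was tested, as counts were too low. Photoreceptor markers, among them Rom1 and Pde6b, summed to 15.9 and 28.1, 92.2 and 46.0, and 33.9 and 24.3 CPM. The vascular, oligodendrocyte and blood list, led by the myelin gene Mbp, summed to 14.1 and 21.1, 23.7 and 12.6, and 24.2 and 63.1 CPM. Microglial, photoreceptor and myelin transcripts were therefore scarce in both classes.

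The second comparison asked whether other transcripts vary with the amount of mCherry inside the positive class. No gene passed the test between cells with more and less mCherry. Positive cells above the library median of mCherry UMIs per 10000 were paired by depth with positive cells at or below it. Injured 2 gave 11 pairs and injured 3 gave 191, while injured 1 gave 7 and was left out because at least 10 pairs were required. Of 11188 genes tested, 0 (0%) passed in edgeR's quasi-likelihood test, with 258 at an unadjusted p below 0.05, 181 of them lower in cells with more mCherry. DESeq2 called 1 gene and limma-voom 2. The comparison had only 2 libraries, and its count depended on the settings, as it was 59 when at least 10 counts were required in every sum, 24 without a filter and 45 without the ribosomal limit.

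The 5 genes with the smallest p were chosen after their values were seen, and all were lower in cells with more mCherry. Cartpt, the precursor of CART peptides and a transcript of direction-selective RGCs, had 2 and 0 UMIs in high and low cells of injured 2 and 44 and 365 in injured 3, where 1 low cell held 205 (log2 fold change -2.91, adjusted p = 0.485). Asic2, an acid-sensing channel gene, had 45 and 192 UMIs in injured 2 and 779 and 1509 in injured 3. Gabrg3 and Gria4, which encode subunits of GABA and glutamate receptors, and the potassium channel gene Kcnq5 had log2 fold changes of -1.04, -1.19 and -1.46, each with an adjusted p of 0.485. Of the genes called between positive and negative cells, Ifi202b had no UMI in injured 2 and 62 and 175 in high and low cells of injured 3 (-1.50, adjusted p = 1.00). Ifit1 had 88 and 81 in injured 3 (0.11), and Penk had 25 and 27 in injured 2 and 321 and 225 in injured 3 (0.36). Piezo2 (-1.59) had 3 and 4 UMIs in injured 2 and 15 and 55 in injured 3, where 1 low cell held 18. In injured 3 Ifi202b was found in 4 high and 15 low cells. Ifi202b and Piezo2 thus lay lower in cells with more mCherry without passing the test, mainly through few cells of injured 3. Ifit1 and Penk lay above 0. Of the other called genes, Sdk1 lay at 0.01 and the rest between -1.26 (Vwc2) and -0.03 (Ifit2), and none passed.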

How the data were processed

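The authors aligned reads to mm39 with Cell Ranger (7.0.1 by the submitters' notes, though the paper names an earlier version), selected RGCs and deposited the raw count of UMIs for each gene in each of these cells, not normalized. Against doublets the authors set an upper limit on the UMIs of a cell, and no doublet caller was run here. How reads of mCherry were counted is not stated, though for cells treated with the Atp6v0c vector the supplement reports a reference extended by the transgene and its untranslated regions. Members and gene lists were chosen with earlier results of these data known. Depth was the total UMIs of a cell without mCherry. Cells were paired 1 to 1 within a library, starting with the deepest of the smaller class, and a library entered with at least 10 pairs. Counts were summed per library and class with Python 3.11.15 and scipy 1.17.1, and tested in R 4.3.3 with edgeR 4.0.16 (TMM factors, filterByExpr by class, robust quasi-likelihood fit, library as a block, Benjamini-Hochberg threshold 0.05), which was tested on simulated data. Medians of classes were compared over libraries with an exact sign-flip permutation test. Injured 4 was left out because it shares most of its barcodes with injured 3.

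Named genes included mCherry, Klf9, Atp6v0c, the 4 pan-RGC markers, the sex-linked genes, from each list up to 4 genes past the threshold or else the 2 most abundant, and, among genes past the threshold that went the same way in every library and averaged 4 or more in log2 CPM, up to 10 largest rises and 10 largest falls. Lists were pan-RGC markers, RGC subtype transcripts, axon injury response, shRNA targets with PI3K-mTOR genes, AAV attachment and entry, interferon and antiviral genes, antigen presentation, DNA damage and p53 targets, ER stress, chaperones and proteasome, immediate early genes, mitochondrially encoded genes, nuclear noncoding RNAs, sex-linked genes, V-ATPase Vo genes, and markers of photoreceptors, bipolar cells, amacrine cells, glia, microglia, and vascular, oligodendrocyte and blood cells.

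Alternatives were DESeq2 1.42.0, limma-voom (limma 3.58.1), library totals, other filters on low counts, no block, other matching, no ribosomal limit, injured 4 in place of injured 3, higher mCherry thresholds, cells of 1 sex, mitochondrial and ribosomal genes left out, and each library left out.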

Additional observations from a re-analysis of the deposited data

Results flagged for a closer look

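Injured 4, which entered no comparison, had mCherry UMIs in 94.4% of its kept cells (369 of 391), against 0 of 1549 uninjured cells. It shares 421 barcodes with injured 3, so this was not counted as a further observation of the reporter.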

How the results depend on the processing

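The count of genes past the threshold between mCherry-positive and mCherry-negative cells ranged from 0 to 74 over 21 alternatives, against 16. It was 1 with DESeq2, 57 with no filter on low counts, 0 with at least 10 counts in every sum (168 genes at an unadjusted p below 0.05, edgeR) and 1, Piezo2, with no replicate block. It was 5 with all cells unmatched, 0 with cells matched within 0.02 on the log2 scale, 9 with no ribosomal limit, 5 with injured 4 in place of injured 3, 4 with positive cells defined at 2 mCherry UMIs and 32 at 5. Leaving out each library in turn gave 14 to 74. Alternatives chosen after seeing the data gave 9 with up to 5 matched cells per cell, 9 with a second matched set, 0 without the highest cell of each sum and 32 with female cells only, 21 of these higher in positive cells. Of the calls tested again, 132 were repeated, 147 missed the threshold and 1 reversed. Lingo2 was 0.038 with a second matched set, and Gadd45g, not called before, was -1.01 (adjusted p = 0.0154, edgeR) in female cells only. The cause was not tested.

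The count between cells with more and less mCherry was 0, and it was 1 with DESeq2, 2 with limma-voom, 24 with no filter, 59 with at least 10 counts in every sum, 2 with all cells unmatched and 45 with no ribosomal limit, and 0 with no replicate block (61 genes at an unadjusted p below 0.05, edgeR). The cause was not tested. The share of positive cells in injured 3, 96.7%, was 93.2% at 2 mCherry UMIs, 86.0% with no ribosomal limit, 94.3% after thinning and 94.4% in injured 4. Male cells alone left injured 3 as the only library with 10 pairs, and matching within 0.02, matching for depth and ribosomal share, or leaving out a library left only 1 library for the second comparison, so these gave no value.

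The comparisons rest on 27, 40 and 14 pairs of cells, at times with most UMIs of a gene in 1 cell. Libraries are pools, injured 3 holds male cells, the vector is not known, and cells without an mCherry UMI may carry the reporter below detection.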

Other observations

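Several subtype transcripts that were common in uninjured RGCs were rare in matched injured cells of both mCherry classes. At least 2 UMIs of Jam2, a junction adhesion gene of J-RGCs, were found in 4 of 81 positive and 0 of 81 negative cells, against a median of 53.5% of cells over the 6 uninjured libraries (31.4 to 63.0%). Cartpt was found in 2 and 6 of 81, against 64.8% (56.4 to 71.4%). The homeobox gene Irx4 was found in 0 and 0 of 81, against 37.9% (32.0 to 48.8%). Tac1 went the other way, with 61 and 53 of 81 cells against 33.1% (27.6 to 41.3%). Uninjured cells were deeper, and no test was run on these shares.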
